A study of Homo sapiens with 16 samples.

Results

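Kinesin family members were taken as the protein-coding genes named KIF or KIFC followed by a digit in both count tables, leaving out names with a hyphen. The rule found 43 of 58735 genes. Of these, 42 encode kinesins and 1, KIF1BP (now KIFBP), encodes a protein that binds motors of the kinesin-3 group. The 42 are called motors here, although KIF26B is without motor activity. The motors were placed by known role into 14 mitotic kinesins, 15 kinesins of interphase transport and 13 others. CENPE, a mitotic motor whose symbol does not begin with KIF, lies outside the rule and is given with the spindle partners.

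mRNA was measured by RNA sequencing in MDA-MB-231 and SUM159PT, human lines of triple-negative breast cancer, defined by the lack of hormone receptors and of extra HER2. Cells of each line, labelled wild type, received by lipofection a guide RNA to YES1 (sgYES1), a Src-family tyrosine kinase, or a non-targeting guide (sgNTS), and were collected 48 h later. The 4 groups were SUM159PT sgYES1, SUM159PT sgNTS, MDA-MB-231 sgYES1 and MDA-MB-231 sgNTS, with 4 libraries each. The submitters call the replicates technical, so p-values measure only the spread between these libraries. The labels do not name the effector protein, and each line was given a transient transfection. The RNA is from bulk cells, so fewer cells in mitosis and less mRNA per cell cannot be told apart.

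Kinesins are motors that convert ATP hydrolysis into movement along microtubules or into loss of tubulin from microtubule ends. Mitotic kinesins build the spindle, move chromosomes and organise the midzone at cytokinesis, and their mRNAs are known to peak in the G2 and M phases of the cell cycle. Transport kinesins carry vesicles, endosomes and organelles through interphase cells, and their mRNAs are not tied to one phase. The promoters of many G2 and M genes carry a cell cycle homology region (CHR), bound by the DREAM and MuvB complexes, beside CCAAT boxes bound by NF-Y.

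The promoters of the mitotic kinesins are shown because 12 of these genes fell with sgYES1 in MDA-MB-231. Windows from 250 bases before to 50 bases after each annotated start were available from RefSeq (GRCh38.p14) for 14 of 14 mitotic and 11 of 15 transport kinesins. Each was searched on both strands for 2 CHR spellings. The first was TTTGAA, which reads as TTCAAA when it lies on the reverse strand. The second was TTTAAA, which reads alike on both strands. The box bound by NF-Y was searched as CCAAT, which on the reverse strand reads as ATTGG. A CHR spelling was present in 12 mitotic kinesins (85.7%), 2 transport kinesins (18.2%) and 27.9% of the 27305 genes in the table. CCAAT was present in 11 mitotic kinesins (78.6%), 4 transport kinesins (36.4%) and 39.7% of all genes. Both were present in 10 mitotic kinesins (71.4%), in 1 transport kinesin (9.09%), KIF5B, and in 11.2% of all genes. The mitotic windows without a CHR spelling were those of KIF22 and KIF2B. KIF22 was among the genes that fell, and KIF4B had a CHR spelling but was too low to be tested. The 12 genes with a CHR spelling are therefore not the same set as the 12 that fell. Median GC content was 62% in mitotic, 70.5% in transport and 58.7% in all windows, and the part of base composition in these shares was not tested. A match is a run of letters and not a measured binding site.

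The 100 bases before the start are printed 5′ to 3′ for 5 mitotic kinesins that hold both motifs in this stretch, with the motif letters in capitals. The KIF11 stretch is chr10:92593030-92593129, forward strand. The KIF4A stretch is chrX:70290004-70290103, forward strand. The KIF23 stretch is chr15:69414249-69414348, forward strand. The KIF18A stretch is chr11:28108157-28108256, reverse strand. The KIF20A stretch is chr5:138179012-138179111, forward strand. The starts used are those of RefSeq. By the gene bounds deposited with the counts, the KIF23, KIF18A and KIF20A stretches lie inside the gene, so motif positions depend on the annotation.
KIF11: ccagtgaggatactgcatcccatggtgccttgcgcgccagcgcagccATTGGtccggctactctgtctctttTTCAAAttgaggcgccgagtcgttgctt
KIF4A: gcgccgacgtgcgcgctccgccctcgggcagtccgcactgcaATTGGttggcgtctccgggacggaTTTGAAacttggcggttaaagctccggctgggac
KIF23: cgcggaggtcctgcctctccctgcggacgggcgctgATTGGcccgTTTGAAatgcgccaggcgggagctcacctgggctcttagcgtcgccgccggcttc
KIF18A: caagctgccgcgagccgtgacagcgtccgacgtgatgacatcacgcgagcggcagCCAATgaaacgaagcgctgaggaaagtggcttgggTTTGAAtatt
KIF20A: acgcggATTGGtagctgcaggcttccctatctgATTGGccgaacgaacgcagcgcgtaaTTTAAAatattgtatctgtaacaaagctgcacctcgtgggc

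In KIF11 the reverse-strand CCAAT at -53 to -49 was followed by TTCAAA at -28 to -23, counted from the start. KIF4A had the same order, with ATTGG at -58 to -54 and TTTGAA at -34 to -29. In KIF20A, the ATTGG boxes at -94 and -67 lay before TTTAAA at -41. The transport kinesins KIF1C and KIF3A are shown for contrast, with no match in the stretch. The KIF1C stretch is chr17:4997850-4997949, forward strand. The KIF3A stretch is chr5:132737547-132737646, reverse strand.
KIF1C: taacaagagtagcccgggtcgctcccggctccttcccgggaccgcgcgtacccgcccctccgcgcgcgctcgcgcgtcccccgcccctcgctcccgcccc
KIF3A: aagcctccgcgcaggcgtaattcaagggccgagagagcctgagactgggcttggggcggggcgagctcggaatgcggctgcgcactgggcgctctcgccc

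**Figure D1:**
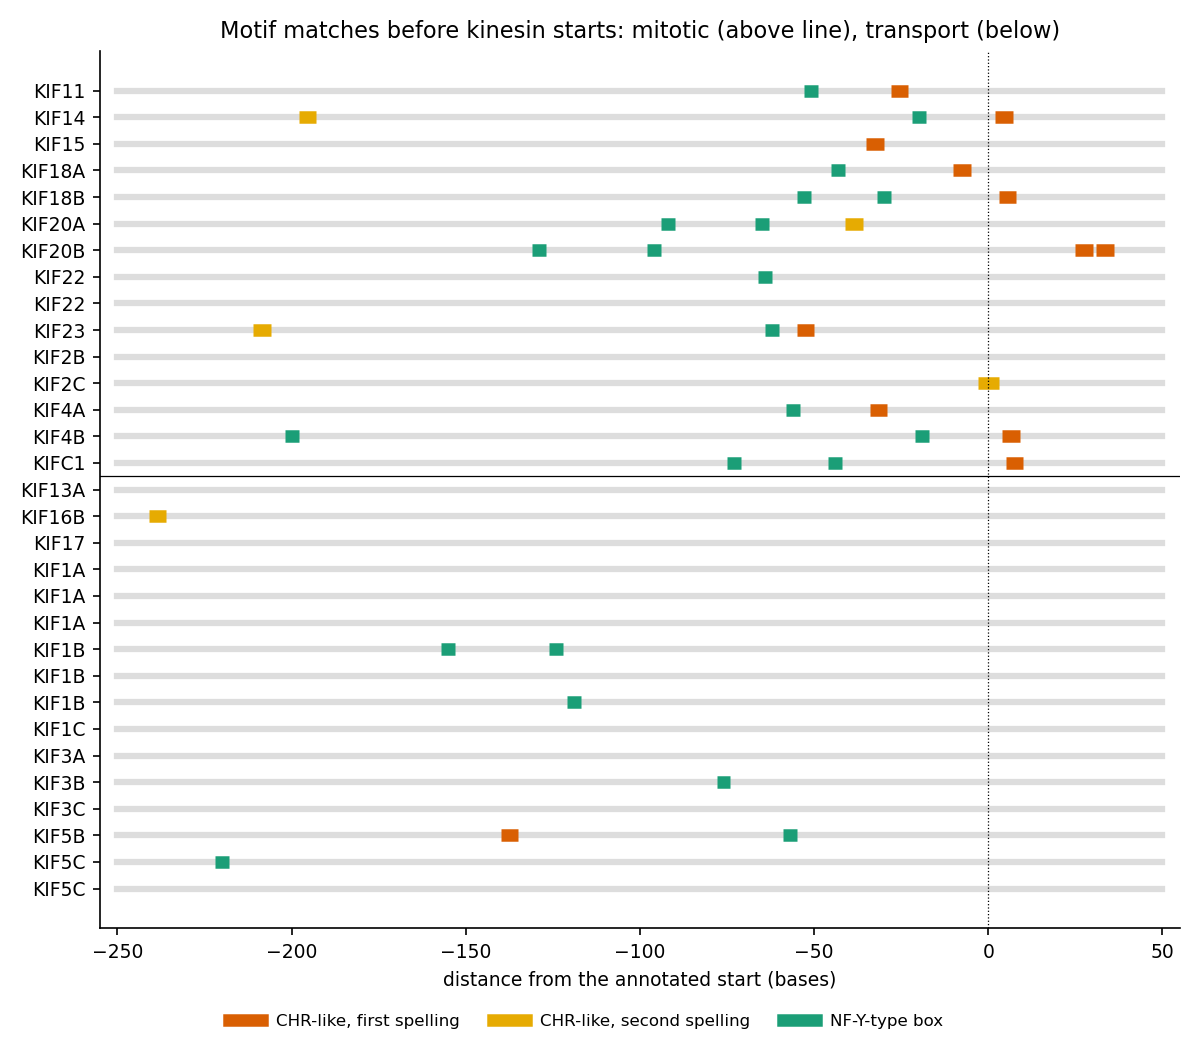
Positions of motif matches (coloured blocks) along the promoter windows of mitotic (above the line) and transport kinesins (below), as distance in bases from the annotated start; a gene with several annotated starts has a row for each. CHR-like matches stand in 12 of 14 mitotic genes and in 2 of 11 transport genes with a window.

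Library totals ranged from 14.4 to 25.1 (in units of 1000000 counts), and the 43 genes took 0.234% to 0.338% of them. YES1 was 40.1, 39.9, 39 and 38.3 CPM (counts scaled to a common library size by TMM) in SUM159PT sgYES1, against 97.7, 93.7, 90.4 and 89.3 CPM in SUM159PT sgNTS. In MDA-MB-231 it was 41.6, 42.8, 44.2 and 43.7 CPM with sgYES1, against 106, 109, 107 and 113 CPM with sgNTS. The fall was 2.36-fold in SUM159PT and 2.53-fold in MDA-MB-231, and the groups did not overlap (two-sided exact permutation test, p = 0.0286 in each line, the smallest possible). PGR had 0 counts in all 16 libraries, and ESR1 had 4 to 17 counts per group. ERBB2, which encodes HER2, averaged 96.1 CPM with sgYES1 and 109 CPM with sgNTS in SUM159PT. In MDA-MB-231 ERBB2 averaged 98.4 CPM with sgYES1 and 108 CPM with sgNTS, and it was called lower with sgYES1 in each line. The summed level of 6 leukocyte markers was 0.687 ± 0.259 CPM with sgYES1 and 0.356 ± 0.232 CPM with sgNTS in SUM159PT (SD, n = 4 each), and 1.43 ± 0.351 CPM with sgYES1 and 0.834 ± 0.198 CPM with sgNTS in MDA-MB-231. CD3E, a T-cell marker among them, was at 0. ITGAM, a myeloid marker and the only 1 tested in MDA-MB-231, was called higher there (log2 fold change 1.90, adjusted p = 0.000917). It had 0.825 to 1.51 CPM with sgYES1 and 0.125 to 0.556 CPM with sgNTS. ITGAM passed the filter on low counts through its sgYES1 libraries, where it was high, so the call is not separate from the filter. LYZ, another of these markers, went the other way in MDA-MB-231. It was 0.0932 CPM with sgYES1 and 0.469 CPM with sgNTS, without overlap, and too low to be tested. The sum of 5 endothelial and fibroblast markers was 56.5 to 73.9 CPM with sgYES1 and 64.5 to 69.1 CPM with sgNTS in SUM159PT, and 32.6 to 34.2 CPM with sgYES1 and 23.9 to 28.9 CPM with sgNTS in MDA-MB-231, where COL1A1 and PECAM1 were called higher. The part of these markers in the kinesin results was not tested. The library MDA-MB-231 sgNTS replicate 4 stood apart from its group (chi-square per degree of freedom up to 29.1 against the others, where the lowest pair of any group had 2.33). Its share of mitochondrial counts was 2.34%, the lowest of all libraries.

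In MDA-MB-231, every mitotic kinesin that could be tested was lower with sgYES1. All 12 of the tested mitotic kinesins fell (adjusted p under 0.05, edgeR quasi-likelihood test with Benjamini-Hochberg adjustment over 15427 genes), none rose, and in none did the groups of libraries overlap. Of all genes tested, 42.8% were called, 22.1% as lower and 20.8% as higher, 39.2% had groups that did not overlap and 20.4% were lower without overlap. The median log2 fold change of the mitotic kinesins was -0.48, from -0.58 (KIF20A) to -0.27 (KIF20B), against 0.01 over all genes tested. Without MDA-MB-231 sgNTS replicate 4, 12 were still lower and the median was -0.47.

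Among motors that set the distance between spindle poles, KIF11 (Eg5) slides antiparallel microtubules apart. KIF11 had 128, 133, 125 and 137 CPM in sgYES1 libraries and 175, 186, 175 and 190 CPM in sgNTS libraries, a log2 fold change of -0.47 (SE 0.04, adjusted p = 7.39e-07). KIF15, which can stand in for KIF11, had 43.2, 44.2, 43.1 and 44.7 CPM with sgYES1 and 63, 60.2, 66.5 and 63 CPM with sgNTS (-0.53, SE 0.04, adjusted p = 4.46e-07). KIFC1 (HSET), a minus-end motor that draws poles together and clusters centrosomes, had 124, 128, 130 and 137 CPM with sgYES1 and 197, 183, 196 and 186 CPM with sgNTS (-0.55, SE 0.04, adjusted p = 1.3e-07). For these motors every sgYES1 library was below every sgNTS library. The ratio of KIFC1 to KIF11, in CPM per kb of gene length as for every ratio here, averaged 1.44 in sgYES1 and 1.52 in sgNTS libraries (geometric means, exact permutation p = 0.257, adjusted p = 0.343 over 12 ratios).

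Among motors that act on chromosomes and microtubule ends, KIF2C (MCAK), which removes tubulin at centromeres, had 130, 122, 126 and 137 CPM in sgYES1 and 181, 178, 186 and 181 CPM in sgNTS libraries (-0.49, SE 0.04, adjusted p = 3.47e-07). KIF4A, a chromokinesin that works with PRC1 at the midzone, had 89.3, 88.6, 87.8 and 97.7 CPM with sgYES1 and 130, 133, 136 and 131 CPM with sgNTS (-0.54, SE 0.04, adjusted p = 1.89e-07). KIF18A, which damps chromosome oscillation, had 30.5, 31.9, 30.5 and 30.7 CPM with sgYES1 and 39.5, 41.2, 39.4 and 41.1 CPM with sgNTS (-0.39, SE 0.05, adjusted p = 1.18e-05). The sgYES1 values lay below all sgNTS values in each. Its relative KIF18B fell by 0.51 and the chromokinesin KIF22 by 0.39 on the log2 scale.

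Of the motors of cytokinesis, KIF20A (MKLP2), which brings the chromosomal passenger complex to the midzone, fell most. KIF20A had 109, 122, 114 and 114 CPM in sgYES1 libraries and 170, 173, 171 and 174 CPM in sgNTS libraries (-0.58, SE 0.04, adjusted p = 5.34e-08, 1.5-fold lower). KIF23 (MKLP1), the motor of centralspindlin, had 100, 116, 109 and 116 CPM with sgYES1 and 145, 146, 144 and 144 CPM with sgNTS (-0.39, SE 0.04, adjusted p = 7.86e-06). KIF14, which works with citron kinase at the midbody, fell by 0.43 and KIF20B by 0.27 on the log2 scale. Although both fell, the ratio of KIF20A to KIF23 averaged 1.73 in sgYES1 and 1.97 in sgNTS libraries, with no overlap (exact permutation p = 0.0286, adjusted p = 0.0686 over 12 ratios, not past 0.05).

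The transport kinesins of MDA-MB-231 moved less and in both directions. Of 12 tested, 3 fell and 1 rose, where 42.8% of all genes tested were called. Their median log2 fold change was -0.01. KIF1C, which carries vesicles over long distances, had 390, 388, 397 and 407 CPM in sgYES1 and 438, 435, 450 and 457 CPM in sgNTS libraries (-0.17, SE 0.03, adjusted p = 0.000661). KIF5B, the widely expressed heavy chain of kinesin-1, had 325, 330, 311 and 316 CPM with sgYES1 and 349, 362, 369 and 395 CPM with sgNTS (-0.20, SE 0.04, adjusted p = 0.000962). KIF3C, a partner of KIF3A in kinesin-2, had 48, 47, 48.3 and 46.4 CPM with sgYES1 and 49.7, 52.7, 57.8 and 55.7 CPM with sgNTS (-0.19, SE 0.05, adjusted p = 0.00846). In these the groups did not overlap, yet each fold change was smaller than that of every mitotic kinesin tested.

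KIFC2, a minus-end motor, rose, with 47.9, 50.5, 57.7 and 54.7 CPM in sgYES1 and 50.1, 45.7, 43.6 and 34 CPM in sgNTS libraries (0.29, SE 0.09, adjusted p = 0.0244). Its groups overlapped, its lowest value was in the control library that stood apart, and its log2 fold change was 0.18 without that library (adjusted p = 0.0313). The call was lost without sgNTS replicate 3 (adjusted p = 0.0526), without sgYES1 replicate 3 (adjusted p = 0.0833) or without sgYES1 replicate 4 (adjusted p = 0.0638). KIF17, a kinesin-2 of cilia and dendrites, had 1.86, 1.67, 1.7 and 2 CPM with sgYES1 and 1.75, 0.953, 0.86 and 1.63 CPM with sgNTS, and was not called (0.45, SE 0.23, adjusted p = 0.131). KIF3A, the common subunit of heterotrimeric kinesin-2, had 18.2, 17.7, 16.2 and 16.9 CPM with sgYES1 and 18, 16.5, 15.5 and 16.8 CPM with sgNTS (0.04, SE 0.07, adjusted p = 0.666). KIF1B, which carries vesicles and mitochondria, had 81, 74.1, 74.3 and 70 CPM with sgYES1 and 66.7, 75.3, 74.4 and 98.3 CPM with sgNTS, the last from the control library that stood apart (-0.07, SE 0.09, adjusted p = 0.542). The groups overlapped in these last 3 genes. KIF3B, KIF13A, KIF13B, KIF16B and KIFC3 were not called, with log2 fold changes between -0.12 and 0.07.

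Of the 9 other kinesins tested in MDA-MB-231, 1 fell and 2 rose, where 42.8% of all genes were called, 22.1% as lower and 20.8% as higher. KIF2A, a depolymeriser at spindle poles and in neurons, had 53, 51.2, 49.4 and 45.3 CPM in sgYES1 and 57.5, 63.7, 58.2 and 64.9 CPM in sgNTS libraries (-0.30, SE 0.06, adjusted p = 0.000768). KIF26B, a family member without motor activity, rose to 3.9, 4.09, 5.05 and 4.28 CPM with sgYES1, against 2.2, 2.65, 3.15 and 2.39 CPM with sgNTS (0.76, SE 0.14, adjusted p = 0.000737). KIF9, a motor of motile cilia, had 6.38, 6.86, 6.75 and 6.6 CPM with sgYES1 and 5.24, 5.93, 4.87 and 5.6 CPM with sgNTS (0.30, SE 0.10, adjusted p = 0.0237). These groups did not overlap. Leaving out 1 library ended the KIF9 call in 4 of 8 cases and DESeq2 gave it an adjusted p of 0.0597. KIF25 had 0.791, 0.634, 1.07 and 0.786 CPM with sgYES1 and 0.457, 0.742, 0.459 and 0.428 CPM with sgNTS (adjusted p = 0.072), and KIF21B had 2.66, 4.32, 2.67 and 2.36 CPM against 3.32, 4.18, 3.55 and 4.92 CPM with sgNTS (adjusted p = 0.0774). KIF7, KIF21A, KIF24 and KIF27 were not called. KIF1BP fell by 0.19 on the log2 scale (adjusted p = 0.00308).

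**Figure D2:**
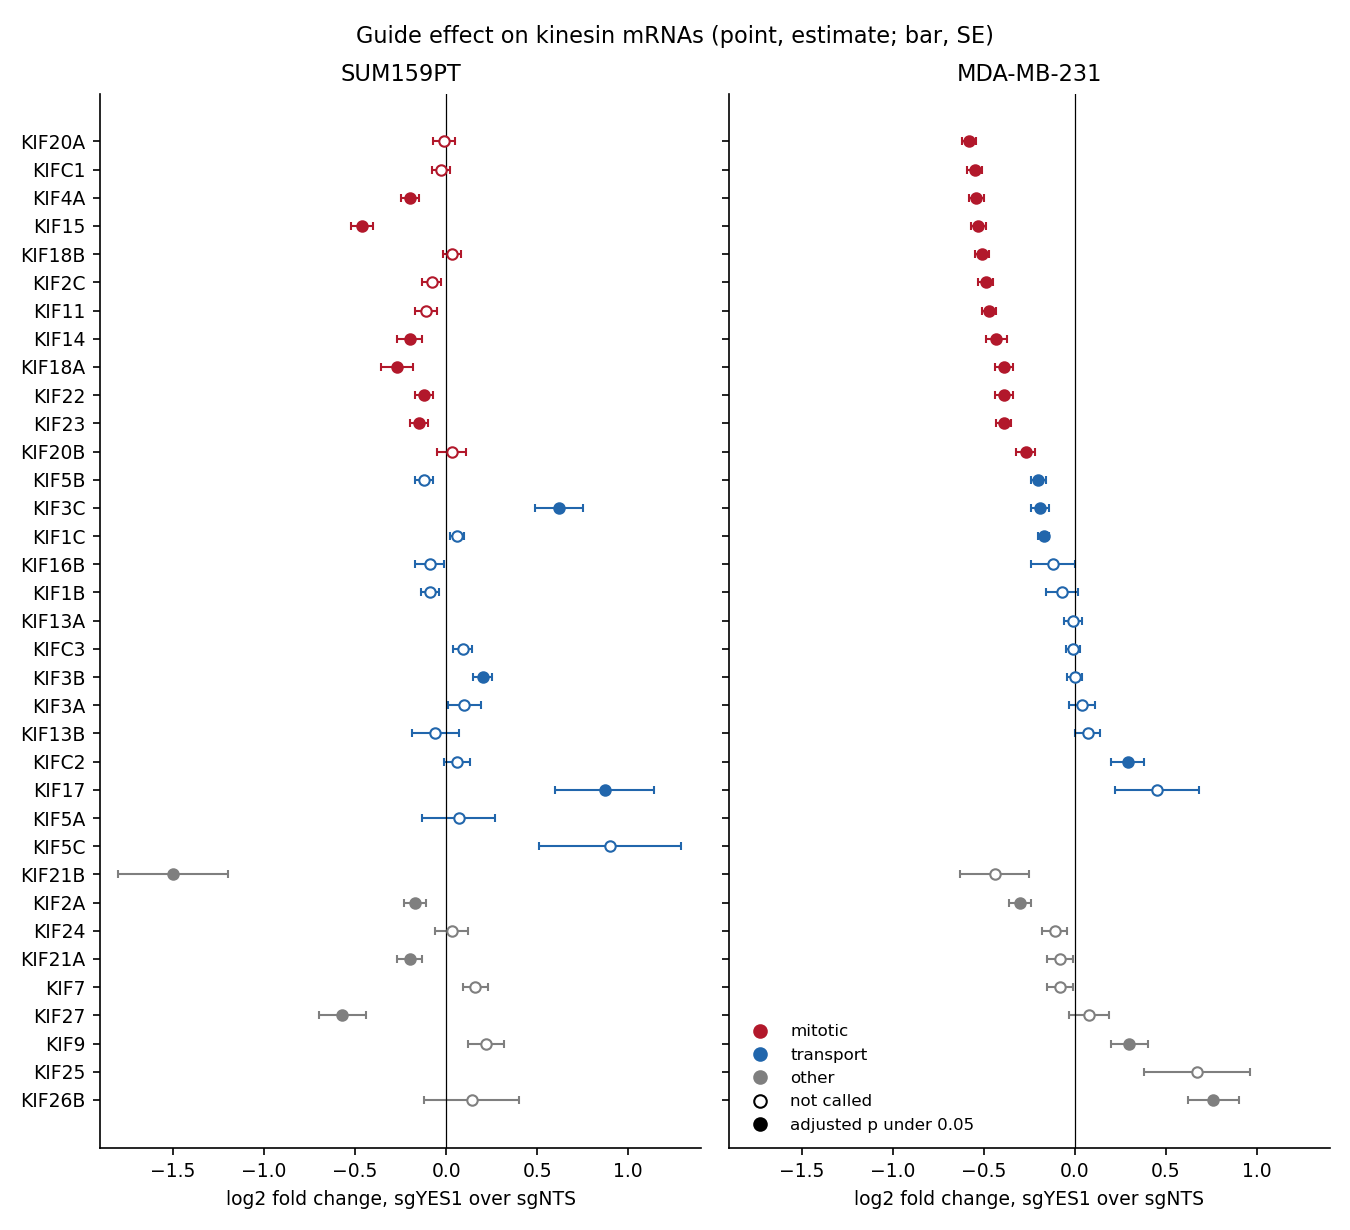
Log2 fold change of sgYES1 over sgNTS with its SE for the motors tested in at least 1 line, SUM159PT at left and MDA-MB-231 at right, coloured by class and filled where called. The 12 mitotic kinesins of MDA-MB-231 lie between -0.58 and -0.27, while those of SUM159PT lie between -0.46 and 0.03.

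In SUM159PT fewer mitotic kinesins moved, and by less. Of 12 tested, 6 fell and none rose, where 39.4% of all genes were called, 19.7% as lower and 19.6% as higher. The median log2 fold change was -0.12, against -0.01 over all 14479 genes tested. Only KIF15, KIF18A and KIF4A had groups that did not overlap, 3 genes, where 35.3% of all genes had none and 17.6% were lower without overlap. Leaving out any 1 library lowered the count, to between 2 and 5: without SUM159PT sgNTS replicate 2 only KIF15 and KIF4A were called and the median was -0.09, and without SUM159PT sgNTS replicate 3 the count was 3. With library totals as the scaling, 3 were called.

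KIF15 had 28.7, 29.3, 28 and 26.2 CPM in sgYES1 and 40.6, 37.8, 37.7 and 38.2 CPM in sgNTS libraries (-0.46, SE 0.06, adjusted p = 5.22e-06, 1.37-fold lower). KIF4A had 59, 58.9, 56.7 and 63.1 CPM with sgYES1 and 67.5, 68.7, 67.2 and 70 CPM with sgNTS (-0.20, SE 0.05, adjusted p = 0.00311). KIF18A had 13.4, 12.7, 14.9 and 12.1 CPM with sgYES1 and 15.1, 17.2, 16.1 and 15.7 CPM with sgNTS (-0.27, SE 0.09, adjusted p = 0.0165). Every sgYES1 value lay below every sgNTS value in these genes. KIF23 had 111, 97.3, 102 and 104 CPM with sgYES1 and 116, 121, 118 and 107 CPM with sgNTS (-0.15, SE 0.05, adjusted p = 0.0206). KIF14 had 34.2, 27.6, 33.4 and 28.6 CPM with sgYES1 and 33, 38, 36.2 and 35.4 CPM with sgNTS (-0.20, SE 0.07, adjusted p = 0.0341). In both genes the highest sgYES1 libraries exceeded the lowest control. KIF22 fell by 0.12 (adjusted p = 0.0428), a call that DESeq2 did not make (adjusted p = 0.06). KIF18A, KIF23, KIF14 and KIF22 each lost the call when at least 1 library was left out.

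KIF11 was not called in SUM159PT, with 73.3, 69.4, 68.9 and 73.3 CPM in sgYES1 and 72.8, 84.7, 70.9 and 79.7 CPM in sgNTS libraries (-0.11, SE 0.06, adjusted p = 0.115). KIFC1 had 103, 118, 111 and 119 CPM with sgYES1 and 109, 123, 116 and 113 CPM with sgNTS (-0.03, SE 0.05, adjusted p = 0.715). KIF2C, KIF18B, KIF20A and KIF20B had log2 fold changes from -0.08 to 0.03 and were not called. Since KIF15 fell and KIF11 was not called, the ratio of KIF15 to KIF11 averaged 0.363 in sgYES1 and 0.462 in sgNTS libraries, with no overlap (exact permutation p = 0.0286, adjusted p = 0.0686 over 12 ratios). That of KIF18B to KIF18A averaged 6.46 with sgYES1 and 5.23 with sgNTS, with the same p.

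**Figure D3:**
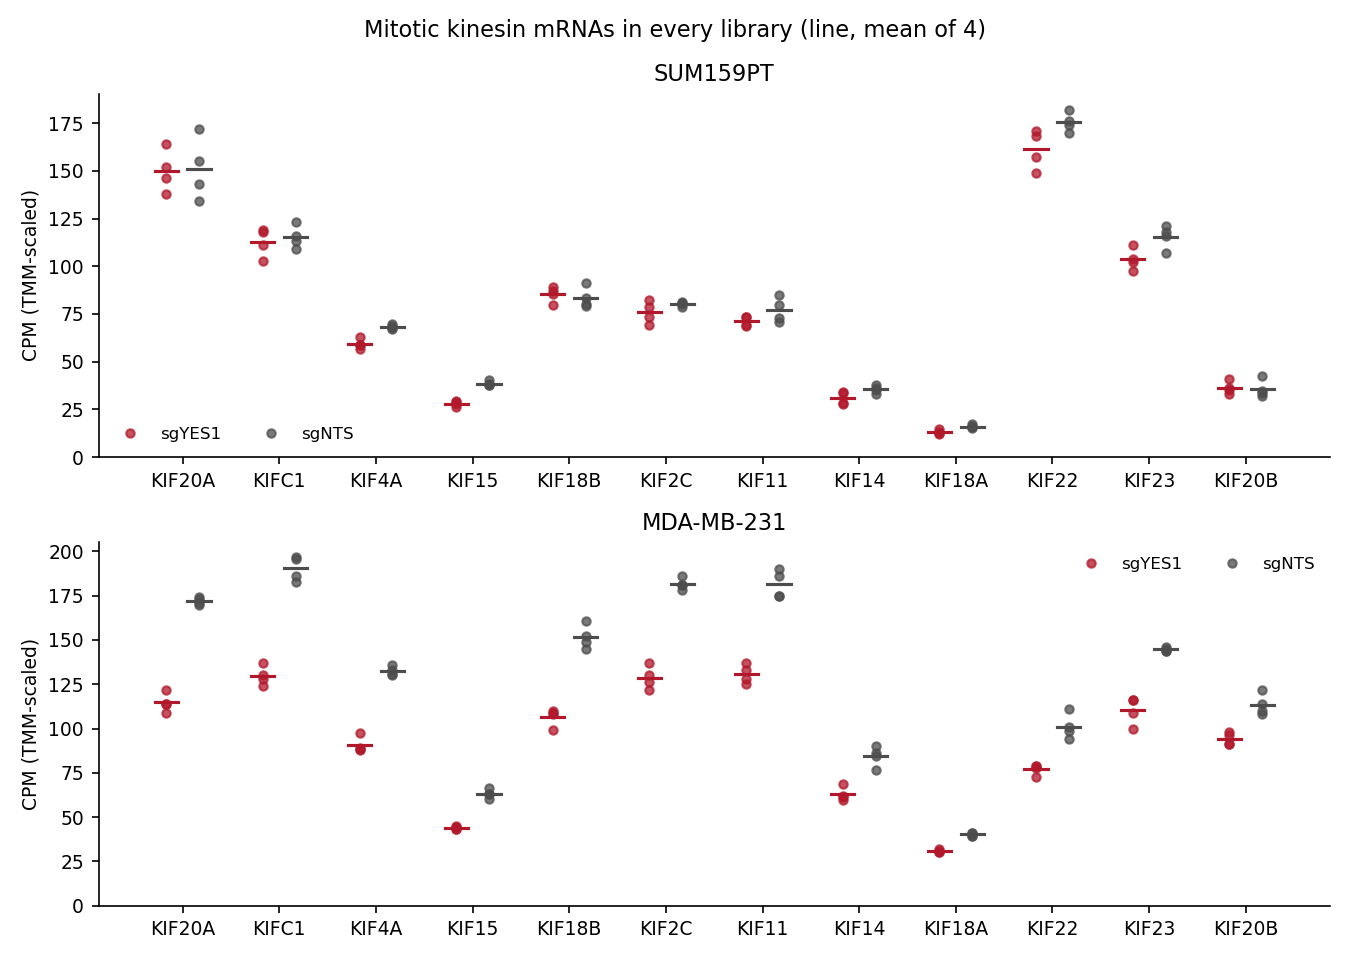
CPM of the 12 tested mitotic kinesins in every library (points) with the group mean (line), sgYES1 left of sgNTS, SUM159PT above and MDA-MB-231 below. In MDA-MB-231 all sgYES1 points lie below the sgNTS points of the same gene, and in SUM159PT this holds for KIF4A, KIF15 and KIF18A.

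Among transport kinesins of SUM159PT, 3 of 13 tested rose and none fell, where 19.6% of all genes rose and 17.7% were higher without overlap. The share that rose was near that of all genes. The median log2 fold change was 0.07. KIF3C had 9.16, 9.14, 8.68 and 11.3 CPM in sgYES1 and 5.83, 5.64, 5.63 and 7.69 CPM in sgNTS libraries (0.62, SE 0.13, adjusted p = 0.000492, 1.54-fold higher). KIF3B, which pairs with KIF3A, had 83.7, 80.9, 82.8 and 78.7 CPM with sgYES1 and 70.3, 70.5, 68 and 73.9 CPM with sgNTS (0.20, SE 0.05, adjusted p = 0.00176). KIF17 had 1.25, 1.84, 1.83 and 1.36 CPM with sgYES1 and 1.04, 0.72, 1.13 and 0.58 CPM with sgNTS (0.87, SE 0.27, adjusted p = 0.0145). In these genes the groups did not overlap. The KIF17 call was lost without SUM159PT sgNTS replicate 4 (adjusted p = 0.0717). KIF17 passed the filter through its sgYES1 libraries, where it was high, so its rise is not separate from the filter.

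KIF3A itself had 19.8, 14.9, 15.9 and 16.4 CPM in sgYES1 and 15, 16.9, 16.3 and 14.6 CPM in sgNTS libraries (0.10, SE 0.09, adjusted p = 0.408). KIF5B had 288, 269, 286 and 251 CPM with sgYES1 and 307, 310, 290 and 279 CPM with sgNTS (-0.12, SE 0.05, adjusted p = 0.0531), and was called lower without any 1 of 3 libraries. KIF5C, a neuronal kinesin-1, had 0.916, 0.724, 1.24 and 0.875 CPM with sgYES1 and 0.518, 0.36, 1.05 and 0.193 CPM with sgNTS (0.90, SE 0.39, adjusted p = 0.0691). KIF1B had 125, 113, 118 and 115 CPM with sgYES1 and 133, 128, 120 and 122 CPM with sgNTS (-0.09, SE 0.05, adjusted p = 0.128). These groups overlapped. KIF1C, KIF5A, KIF13B, KIF16B, KIFC2 and KIFC3 were not called.

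Of 8 other kinesins tested in SUM159PT, 4 fell and none rose, where 39.4% of all genes were called and 19.7% fell. KIF21B, which limits microtubule growth, had 0.434, 0.789, 0.945 and 0.632 CPM in sgYES1 and 3.11, 1.5, 1.69 and 1.6 CPM in sgNTS libraries (-1.50, SE 0.30, adjusted p = 0.000463, 2.83-fold lower). KIF27, a paralog of KIF7, had 4.29, 5.79, 5.31 and 5.2 CPM with sgYES1 and 8.48, 6.42, 7.74 and 7.78 CPM with sgNTS (-0.57, SE 0.13, adjusted p = 0.00133). The groups did not overlap in either gene. KIF21B passed the filter through its sgNTS libraries, where it was high, so its fall is not separate from the filter. Its highest control, 3.11 CPM, was replicate 1, against 1.5 to 1.69 CPM in the others. KIF2A had 80.1, 69, 75.9 and 68.3 CPM with sgYES1 and 84.9, 80.8, 84.7 and 79.4 CPM with sgNTS (-0.17, SE 0.06, adjusted p = 0.0196). KIF21A had 62.4, 52.6, 59.6 and 50.1 CPM with sgYES1 and 70.9, 60, 62.1 and 65.6 CPM with sgNTS (-0.20, SE 0.07, adjusted p = 0.022). Both overlapped between groups and lost the call without any 1 of 4 libraries. KIF7, a regulator of Hedgehog signalling at the cilium, had 36.5, 43.4, 37.7 and 38.9 CPM with sgYES1 and 31.9, 36.1, 34.2 and 37.3 CPM with sgNTS (0.16, SE 0.07, adjusted p = 0.0624). KIF9, KIF24, KIF26B and KIF1BP were not called.

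The difference between lines was tested as the interaction of line and guide. For 9 of 12 mitotic kinesins the log2 fold change in SUM159PT was higher than in MDA-MB-231, that is, the fall was smaller. Over all genes tested 24.5% differed, 12.7% in that direction. KIF20A changed by -0.01 in SUM159PT and -0.58 in MDA-MB-231, a difference of 0.56 (SE 0.08, adjusted p = 2.22e-05). KIF18B differed by 0.53 (SE 0.07, adjusted p = 6.45e-06) and KIFC1 by 0.51 (SE 0.07, adjusted p = 7.27e-06). KIF11 differed by 0.35, KIF2C by 0.39 and KIF4A by 0.33. No difference was found for KIF15 (0.06, 95% interval -0.09 to 0.20) or KIF18A (0.10, -0.09 to 0.29), though the intervals do not show equal effects. The KIF14 difference was not called (0.22, 0.02 to 0.41, adjusted p = 0.102). Its interval left out 0, and it was called without any 1 of 4 libraries (adjusted p 0.0189 to 0.0373). The KIF20B difference (0.29, adjusted p = 0.0301) lost its call without any 1 of 5 libraries.

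Of the 11 transport kinesins that passed the filter in each line, 3 differed, a share near the 24.5% of all genes tested. These were KIF3C (0.79, SE 0.13, adjusted p = 5.80e-05), KIF1C (0.21, SE 0.06, adjusted p = 0.00811) and KIF3B (0.20, SE 0.06, adjusted p = 0.0258). KIF13A, KIF5A and KIF5C passed the filter of that test through 1 line, are left out of the count and were not called. The KIF3B call was lost without MDA-MB-231 sgYES1 replicate 3 (adjusted p = 0.0598). KIF3C rose in SUM159PT and fell in MDA-MB-231. The log2 fold change of KIF21B was lower in SUM159PT (-1.08, adjusted p = 0.0356), a call lost without any 1 of 7 libraries. KIF27 had a log2 fold change of -0.57 in SUM159PT and 0.08 in MDA-MB-231, where it was not called (difference -0.67, adjusted p = 0.00475). KIF1BP differed by 0.27 (adjusted p = 0.00442).

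Summed over the class, the mitotic kinesins had 937 ± 30.1 CPM in sgYES1 and 1006 ± 47.7 CPM in sgNTS libraries of SUM159PT (SD, n = 4 each). In MDA-MB-231 they had 1110 ± 35.6 CPM with sgYES1 and 1538 ± 7.22 CPM with sgNTS. The transport kinesins summed to 1179 ± 26.7 CPM with sgYES1 and 1171 ± 14.1 CPM with sgNTS in SUM159PT. In MDA-MB-231 they summed to 1422 ± 15.6 CPM with sgYES1 and 1517 ± 51.9 CPM with sgNTS. The libraries of MDA-MB-231 did not overlap in either class, and those of SUM159PT overlapped in both. Shares of the mitotic sum were taken from CPM per kb of gene length, unlike the sums above. In MDA-MB-231, KIFC1 held 15.8 ± 0.321% with sgYES1 and 16.6 ± 0.563% with sgNTS. KIF11 held 11 ± 0.261% with sgYES1 and 10.9 ± 0.48% with sgNTS. KIF20B, which fell least, held 5.61 ± 0.129% with sgYES1 and 4.82 ± 0.271% with sgNTS. In SUM159PT, KIF15 held 2.54 ± 0.185% with sgYES1 and 3.29 ± 0.226% with sgNTS. These shares were not tested.

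**Figure D4:**
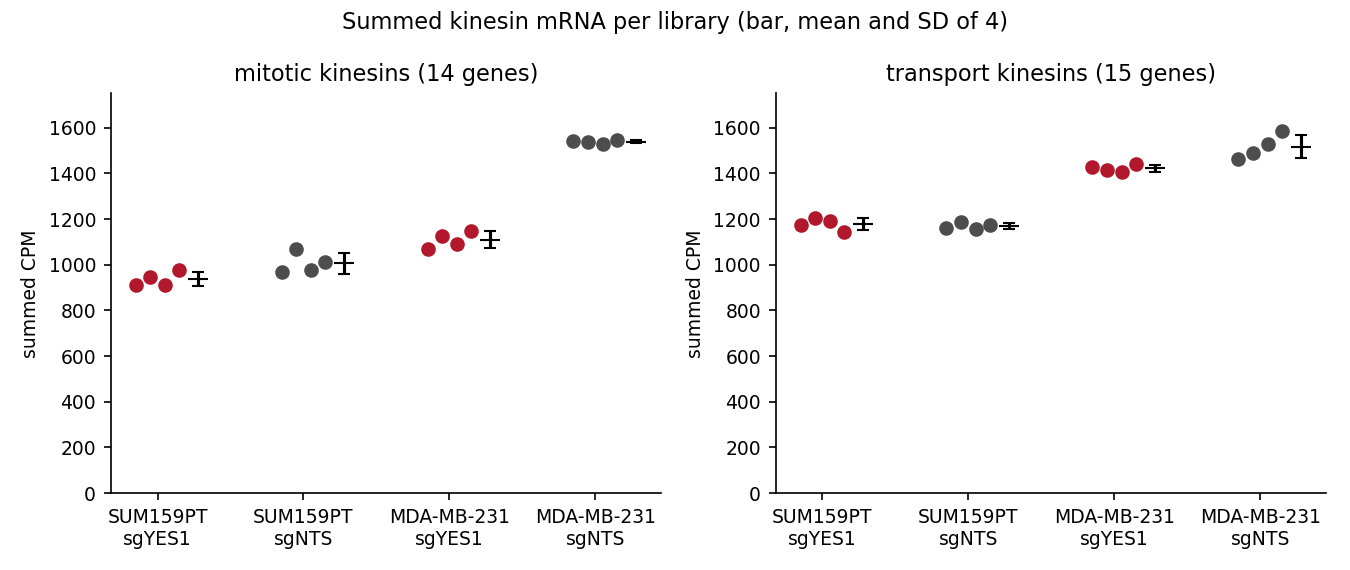
Summed CPM (scaled over all 16 libraries) of the mitotic and transport kinesins in each library (points), with mean and SD of 4. The mitotic sum of MDA-MB-231 is 1070 to 1150 CPM with sgYES1 and 1530 to 1547 CPM with sgNTS, and the transport sums differ less.

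Other genes of the same processes were counted for comparison, where 39.4% of all genes were called in SUM159PT (19.7% lower, 19.6% higher) and 42.8% in MDA-MB-231 (22.1% lower, 20.8% higher). Of 20 spindle and midzone partners, 6 fell and 2 rose in SUM159PT and 19 fell and none rose in MDA-MB-231, with medians of -0.05 and -0.47. CENPE, the kinetochore motor, had a log2 fold change of -0.24 in SUM159PT (SE 0.08, adjusted p = 0.0177) and -0.59 in MDA-MB-231 (SE 0.05, adjusted p = 6.96e-07). Of 20 G2/M genes outside the rule, 8 fell in SUM159PT and 20 fell in MDA-MB-231, where MYBL2 fell by 0.67 and TOP2A by 0.47. PLK1, AURKA, AURKB, BUB1, BUB1B, TPX2 and CENPE stand in this list and among the partners, so the counts of these lists are not separate. Of 20 G1/S genes, 3 fell and 7 rose in SUM159PT and 19 fell in MDA-MB-231, so in MDA-MB-231 genes of DNA replication moved with the mitotic kinesins: RRM2 fell by 0.70 and MCM6 by 0.61. Their part in the kinesin result was not tested. Of 20 adaptors and light chains of transport kinesins, 2 fell and 4 rose in SUM159PT and 4 fell and 6 rose in MDA-MB-231. This list includes KIF1BP, a member of the rule already given above, which was among those that fell in MDA-MB-231. In MDA-MB-231 MAP7D3, which had the smallest p of this list, fell by 0.55, and KLC4, a kinesin light chain, rose by 0.65.

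Control libraries of the lines differed in most genes (81.8% of 16640 tested, 41.3% lower and 40.5% higher in SUM159PT). Of 12 mitotic kinesins, 11 were lower and 1 higher in SUM159PT sgNTS than in MDA-MB-231 sgNTS, with a median log2 fold change of -0.87. Among the 11, KIF20A overlapped between lines (-0.15, adjusted p = 0.023), and its call was lost without SUM159PT sgNTS replicate 1 (adjusted p = 0.0851) or replicate 3 (adjusted p = 0.0531). KIF20B had 36.1 ± 4.73 CPM in SUM159PT and 112 ± 6.28 CPM in MDA-MB-231 (SD, n = 4 each). KIF18A had 16.2 ± 0.903 CPM in SUM159PT and 39.8 ± 1.02 CPM in MDA-MB-231. KIF22 ran the other way, with 178 ± 5.3 CPM in SUM159PT and 100 ± 7.24 CPM in MDA-MB-231 (0.83, SE 0.05, adjusted p = 5.47e-14). Of the 11 transport kinesins that passed the filter in each line, 7 were lower and 3 higher in SUM159PT. KIF13A, KIF5A and KIF5C passed it through 1 line and are left out of that count.

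Several motors were close to 0 in the control libraries of one line. KIF13A, which carries recycling endosomes, had 6 counts in SUM159PT sgNTS and 6921 in MDA-MB-231 sgNTS, a 917-fold ratio scaled by library totals (95% counting interval 421 to 2498). KIF5A, a neuronal kinesin-1, had 155 counts in SUM159PT sgNTS and 2 in MDA-MB-231 sgNTS, a 97.5-fold ratio (26.5 to 813). KIF25 had 0 counts in SUM159PT sgNTS and 43 in MDA-MB-231 sgNTS, at least 11.4-fold higher in MDA-MB-231 with a floor of 3 counts over the group. KIF3C was 8.35-fold lower in SUM159PT and KIF13B, another endosome and vesicle motor, had a log2 fold change of -2.22. KIF16B, a motor of early endosomes, was higher in SUM159PT (1.72, SE 0.10, adjusted p = 3.78e-14), as was KIF21A (1.73, SE 0.07, adjusted p = 1.12e-17). Intervals from counts cover counting error only.

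**Figure D5:**
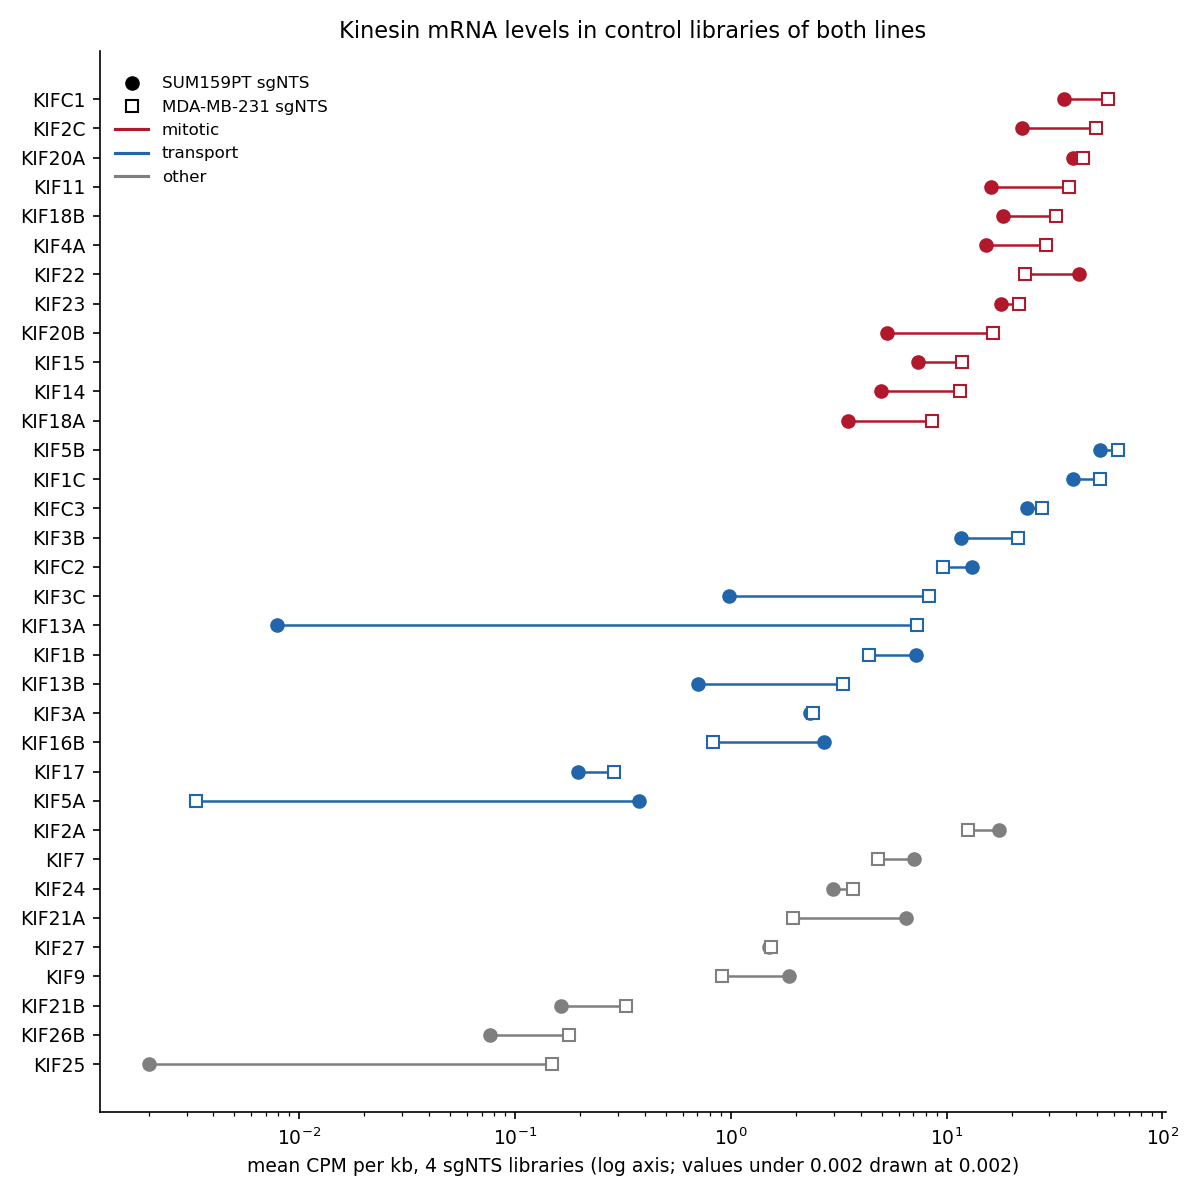
Mean CPM per kb of gene length in the 4 sgNTS libraries of SUM159PT (filled circles) and MDA-MB-231 (open squares), on a log axis, for motors at 0.1 or more in either line, coloured by class. The means of the mitotic kinesins other than KIF22 are lower in SUM159PT, and KIF13A and KIF5A stand far apart between lines.

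Per kb of gene length, KIF5B was the most abundant kinesin mRNA in controls of both lines, at 51.2 ± 2.21 CPM per kb in SUM159PT and 62 ± 3.22 CPM per kb in MDA-MB-231. In SUM159PT it was followed by KIF22 (41.3 ± 1.23), KIF20A (38.6 ± 4.21) and KIF1C (38.6 ± 2.43), whose ranges overlapped. In MDA-MB-231 it was followed by KIFC1 (56.2 ± 2.01), KIF1C (51.2 ± 1.08) and KIF2C (49.1 ± 0.944), where KIF1C and KIF2C overlapped. KIF3A, at 2.32 ± 0.153 in SUM159PT and 2.40 ± 0.146 in MDA-MB-231, was below KIF3B (11.7 ± 0.464 in SUM159PT and 21.5 ± 1.18 in MDA-MB-231). No difference between the lines was found for KIF3A (log2 fold change -0.06, 95% interval -0.23 to 0.12, adjusted p = 0.531).

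Low counts kept 9 kinesins out of the test in each line. KIF2B, a mitotic kinesin known from testis, had 0 counts in all 16 libraries. KIF4B, a near-identical copy of KIF4A, had 23 counts in SUM159PT and 43 in MDA-MB-231, and reads shared between the copies cannot be told apart. KIF1A, KIF6, KIF12, KIF19 and KIF26A were also below the filter in both lines, KIF5A and KIF5C in MDA-MB-231, and KIF13A and KIF25 in SUM159PT. Members whose exons overlap another gene are uncertain, and it is not stated whether counting used strand. On the opposite strand, KIFC2 shares 17.8% of its exon bases with FOXH1, KIF9 14.9% with KIF9-AS1, KIF22 13% with AC009133.4, KIFC1 12.7% with RPL12P1 and KIF7 11.8% with TICRR. KIF2A shares 8.97% with IPO11 on the same strand, where strand does not separate them. Over the 16 libraries AC009133.4 had 0 counts, RPL12P1 15, FOXH1 103, KIF9-AS1 907, TICRR 11525 and IPO11 20682.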

How the data were processed

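RNA was purified with poly-T beads, per the labels' protocols. The authors deposited 1 table of raw read counts per gene for each line. HISAT2 2.0.5 with hg38 served for alignment and featureCounts 1.5.0-p3 for counting, per the submitters' processing notes, with strand and multiple-match settings not given. The deposited gene length (bases, a unit of its own) served only for CPM per kb. Of the 58735 gene IDs, 58724 have GENCODE 29 starts and ends.

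Counts were tested with edgeR 4.0.16 in R 4.3.3 (quasi-likelihood F-test, TMM scaling, filterByExpr with a smallest count of 10 and total of 15) and adjusted by the Benjamini-Hochberg method over all genes tested, two-sided, called under 0.05. Each line was fitted on its 8 libraries with guide as the term. The difference of guide effects and the comparison of controls came from 1 fit over all 16 libraries with line, guide and their interaction. CPM are TMM-scaled, within a line for guide effects and over 16 libraries for lines, sums and levels per kb. Errors are the SD over 4 libraries, or for a log2 fold change the SE from the fit. Exact permutation tests used log2 ratios of CPM per kb and log2 CPM of YES1 with a prior count of 2. Library totals were 14.4 to 25.1 (units of 1000000 counts), and the coefficient of biological variation was 5.66% in SUM159PT and 5.85% in MDA-MB-231. The fits were tested on simulated data.

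Kinesins, their classes and the gene lists were chosen with earlier results of these data known, so classes are described by counts and medians and carry no p of their own. Every member is named, and values per library are given for the 5 members with the smallest p in each class and line and for KIF11, KIF18A, KIFC1, KIF23, KIF5B, KIF1B and KIF3A. From the other lists at most 4 genes were named by smallest p. Markers too low to be tested and genes shared between lists are also named. CENPE and LYZ were added after their values were seen, CENPE because it is a kinesin and LYZ because it ran against ITGAM. Alternatives were DESeq2 1.42.0, other scalings, no filter, a replicate block, other classes and leaving out each library. Libraries with the same replicate number did not deviate together, so no pairing was used.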

Additional observations from a re-analysis of the deposited data

Results flagged for a closer look

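In 8 of 136 groups of 4 libraries, 1 library lay far from the other 3 (its gap took most of the group's range, and the share is given); chance gives about 1 in 20, here 6.8. In SUM159PT sgNTS these were KIF13B in replicate 4 (0.858), KIF3C in replicate 4 (0.887, 7.69 CPM against 5.63 to 5.83 in the others), KIF21B in replicate 1 (0.84, 3.11 CPM against 1.5 to 1.69), KIF24 in replicate 2 (0.846) and KIF5A in replicate 2 (0.855). In MDA-MB-231 they were KIF22 in sgYES1 replicate 1 (0.877), KIF4A in sgYES1 replicate 4 (0.846) and KIF25 in sgNTS replicate 2 (0.878).

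The guide effect differed between lines, SUM159PT minus MDA-MB-231, in 15 genes by the interaction test. Of kinesins that passed the filter in each line, 9 of 12 mitotic, 3 of 11 transport and 2 of 8 others differed. KIF1BP differed as well. Over all genes tested 24.5% differed, and the transport and other kinesins were near that share. Among mitotic kinesins the log2 difference was 0.56 for KIF20A, 0.53 for KIF18B, 0.51 for KIFC1, 0.39 for KIF2C, 0.35 for KIF11, 0.33 for KIF4A, 0.29 for KIF20B, 0.26 for KIF22 and 0.23 for KIF23. Among the rest it was 0.79 for KIF3C, 0.27 for KIF1BP, 0.21 for KIF1C, 0.20 for KIF3B, -0.67 for KIF27 and -1.08 for KIF21B.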

How the results depend on the processing

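All 12 mitotic calls of MDA-MB-231 and all 9 of the mitotic line difference were the same genes under DESeq2, both other scalings, no filter and the block. Of the 6 in SUM159PT, 5 were shared under DESeq2 and under median-ratio size factors, and 3 with library totals. With library totals only, KIF13A, KIF3B and KIFC3 in MDA-MB-231 had log2 fold changes of 0.03, 0.04 and 0.04 and KIF20A in SUM159PT 0.02, all of the other sign and none called. That scaling gave 3 mitotic calls and a median of -0.09 in SUM159PT, and 59.6% of all calls in MDA-MB-231 were then higher, against 48.5%. In SUM159PT, 1 transport kinesin was called lower with no filter and 1 with the block. With KIF2A and KIF24 counted as mitotic and KIF21A and KIF21B as transport, 2 transport kinesins were lower in SUM159PT and 1 in the line difference, and in the controls the mitotic median was -0.76 with 2 higher. With no filter, which let KIF4B in, the mitotic median of the controls was -0.95. The cause of these shifts was not tested.

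Leaving out 1 library at a time, mitotic calls in SUM159PT ranged from 2 (without SUM159PT sgNTS replicate 2) to 5, below 6 in all 8 cases, with a median of -0.13 to -0.09. Transport calls ranged from 2 to 5 higher and 0 to 2 lower in SUM159PT, and from 0 to 2 higher in MDA-MB-231. The mitotic median of the line difference was 0.29 to 0.40. Uncalled log2 fold changes crossed 0 in MDA-MB-231 for KIF3B -0.04 to 0.02, KIF13A -0.04 to 0.04, KIF1B -0.15 to 0.05 and KIFC3 -0.04 to 0.01; in SUM159PT for KIF20B -0.03 to 0.13, KIF20A -0.05 to 0.06, KIFC1 -0.05 to 0.02, KIF13B -0.14 to 0.04, KIF26B -0.01 to 0.27, KIF24 -0.02 to 0.12 and KIF5A -0.05 to 0.20; in the line difference for KIF1B -0.13 to 0.06, KIF16B -0.05 to 0.14, KIF9 -0.13 to 0.01, KIF3A -0.01 to 0.15 and KIF13B -0.19 to 0.00087; and in the controls for KIF27 -0.13 to 0.02.

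The replicate block gave 5886 calls in SUM159PT, against 5701 without it, and 5901 in MDA-MB-231, against 6607. Same-numbered libraries correlated between -0.01 and 0.05 in SUM159PT and between -0.11 and 0.04 in MDA-MB-231. With technical replicates, these errors do not cover differences between cultures. KIF21B, KIF17 and KIF5C, among the lowest members tested, rest on few counts.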
